A study of Mus musculus with 40 samples.

Results

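Synaptic vesicle and release genes encode the proteins that fill synaptic vesicles with transmitter, dock and prime them at the presynaptic membrane, fuse them with it when calcium enters, and take them back up. The set described here holds 45 genes, taken by symbol, and was measured in the embryonic mouse forebrain with and without an added copy of Chd8, a chromatin remodeler gene. All 45 were listed at E18.5 and at E14.5, among 15449 genes at E18.5 and 17940 genes at E14.5, and all 45 had an adjusted p-value at both. Polyadenylated RNA from the forebrain of male embryos was sequenced in 5 Chd8 KI and 5 wild-type (WT) libraries at E18.5, and in 5 Chd8 KI and 5 WT libraries at E14.5. KI embryos carry the added Chd8 and WT embryos do not; neither the promoter that drives the added copy nor the strain is given in the labels. Values are those of the authors' deposited tables, 1 per stage, which give for each gene the mean normalized count over the libraries of that stage, a log2 fold change with its standard error (SE), read here as KI over WT, and DESeq2 p-values. The tables hold no values per library, so the overlap of KI and WT libraries and the depth of each library could not be examined. Whether libraries of 1 group derive from different litters is not given in the labels, and the p-values measure the spread between these libraries.

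Release runs as a cycle. Vesicles that carry synaptophysin, the SV2 proteins and a transmitter transporter are held in clusters by synapsins, brought to the active zone by Rab3 and the RIM scaffolds, and made ready for fusion by the Munc13 proteins. SNARE proteins on the vesicle and on the target membrane then zip together, complexins hold and assist that step, synaptotagmins and Doc2 proteins sense calcium, and dynamin with its partners retrieves the membrane. In the embryonic forebrain most of these genes are switched on as newborn neurons leave division and begin to grow axons, before most synapses have formed.

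The targeted gene was higher in the libraries labelled KI, at either stage. Chd8 stood, in the authors' deposited table, at a log2 fold change of 0.51 (SE 0.038) at E18.5 and 0.64 (SE 0.031) at E14.5. The tables do not name the group on top of the ratio, and it was read from this positive value of Chd8, so that Chd8 cannot check the labels on its own. Markers of the forebrain were present. The cortical transcription factor gene Emx1 had 520 mean normalized counts at E18.5 and 1281 at E14.5, and Dlx1, a gene of GABAergic neurons, had 1899 at E18.5 and 3065 at E14.5. Tubb3, the neuronal tubulin gene, had 43554 mean normalized counts at E18.5 and 29928 at E14.5. These are bulk samples, in which fewer neurons and less RNA per neuron cannot be told apart.

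Promoter sequence was examined for what the release genes share apart from their function. RefSeq gave 47 promoters for 36 of the 45 genes, each running from 250 bases before to 50 bases after a start site on GRCm38.p6; Snap25, Syt4, Syt5, Syt7, Syn3, Vamp2, Rims2, Doc2a and Doc2b had none. Letters of known sites were searched on both strands. The motif CAGCACC is the left part of the site bound by REST, a repressor that silences neuronal genes outside neurons, and the motif GGACAG is its right part. The third, TGACGTCA, is the cAMP response element bound by CREB proteins. The sequences of Syn1, which encodes the vesicle-clustering protein synapsin 1, and Sh3gl2, which encodes the endocytosis protein endophilin A1, are shown because they were the release genes that held the response element, and capitals mark the motifs. The Syn1 stretch is chrX:20921019-20921168 on the minus strand and begins at base −250 before the start, over 150 bases. Sh3gl2 is shown over chr4:85205366-85205455 on the plus strand, from base −90 to base −1.
Syn1: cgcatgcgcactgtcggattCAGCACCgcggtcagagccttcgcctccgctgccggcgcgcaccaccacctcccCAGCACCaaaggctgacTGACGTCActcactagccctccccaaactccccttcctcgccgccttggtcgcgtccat
Sh3gl2: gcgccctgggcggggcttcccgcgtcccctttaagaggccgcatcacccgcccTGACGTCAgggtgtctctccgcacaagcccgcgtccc
In Syn1 the left part of the REST site began at bases −230 and −176 and the response element at base −159, while in Sh3gl2 the response element began at base −37. The response element was held by 2 of the 47 promoters of release genes (4.26%), against 3.08% of the 13185 promoters of genes tested at both stages and 1.79% of all 32851 promoters. The left part of the REST site stood in 4 release promoters (8.51%), against 7.63% of promoters of tested genes. The right part stood in 9 (19.1%), against 22.6% of promoters of tested genes. Both parts occurred in a promoter of Rph3a and in that of Unc13a, which is 4.26% of release promoters against 1.87% of promoters of tested genes. Exact matches were counted anywhere in the window on either strand, without regard to order or spacing. These shares are therefore not counts of full REST sites. In Rph3a the parts overlap, and the right part comes before the left on the strand that carries them. In Unc13a the left part comes before a right part on the strand that carries both, and a further right part lies on the other strand. Median GC content was 61.3% in release promoters and 61.3% in promoters of tested genes, and the median ratio of observed to expected CpG was 0.635 against 0.754. A motif match describes letters only, and a window without one says nothing of binding elsewhere.

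Most release genes had a higher mean normalized count at E18.5 than at E14.5. The tables were normalized separately, so the ratio of each gene was taken relative to the median ratio of 15415 shared genes, a log2 value of 0.145, and no test was made. On that scale 42 of 45 release genes stood higher at E18.5, with a median of 1.94-fold, and 21 of 45 (46.7%) stood over 2-fold higher, against 13.2% of shared genes. Sv2c, a vesicle glycoprotein gene, had 291 mean normalized counts at E18.5 and 69.3 at E14.5, a centred ratio of 3.80-fold. Doc2b, which encodes a soluble calcium sensor, had 1139 at E18.5 and 315 at E14.5, a centred log2 ratio of 1.71. For Rab3b, a vesicle GTPase gene, the centred log2 ratio was 1.59, and for the RIM scaffold gene Rims1 it was 1.57. Snap25, whose protein is the plasma membrane SNARE, had 3551 at E18.5 and 1484 at E14.5. The genes with a centred ratio below 0 were Unc13b at −0.40, Slc17a6 at −0.38 and Syt11 at −0.19. Rims2 had the smallest centred log2 ratio above 0, at 0.17, with mean normalized counts of 1360 at E18.5 and 1090 at E14.5. The cell type markers also differed between the stages on this scale. Of 15 pan-neuronal genes, 13 stood higher at E18.5, with a median of 1.32-fold, and of 96 other release genes with a value, 83 stood higher, with a median of 1.42-fold. All 11 cell division genes stood lower at E18.5, with a median ratio of 0.199, as did all 5 intermediate progenitor genes with a value, with 0.219, and 7 of 11 radial glia genes, with 0.511. Of 12 excitatory cortical neuron genes, 9 stood lower at E18.5, with a median ratio of 0.741, as did 7 of 12 GABAergic neuron genes, with 0.849. All 9 striatal neuron genes stood higher, with a median of 2.67-fold. So did 7 of 8 astrocyte lineage genes, with 3.10-fold, and all 7 oligodendrocyte lineage genes, with 2.53-fold. The largest medians were those of choroid plexus genes, 5 of 6 higher with 6.42-fold, and of meninges and fibroblast genes, 5 of 5 higher with 4.10-fold. Only 1 gene of each of these lists had an adjusted p at E18.5. Of 9 diencephalon and midbrain genes with a value, 7 stood lower, with a median ratio of 0.670. The part of the cell makeup in the stage ratios of the release genes was not tested.

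**Figure D1:**
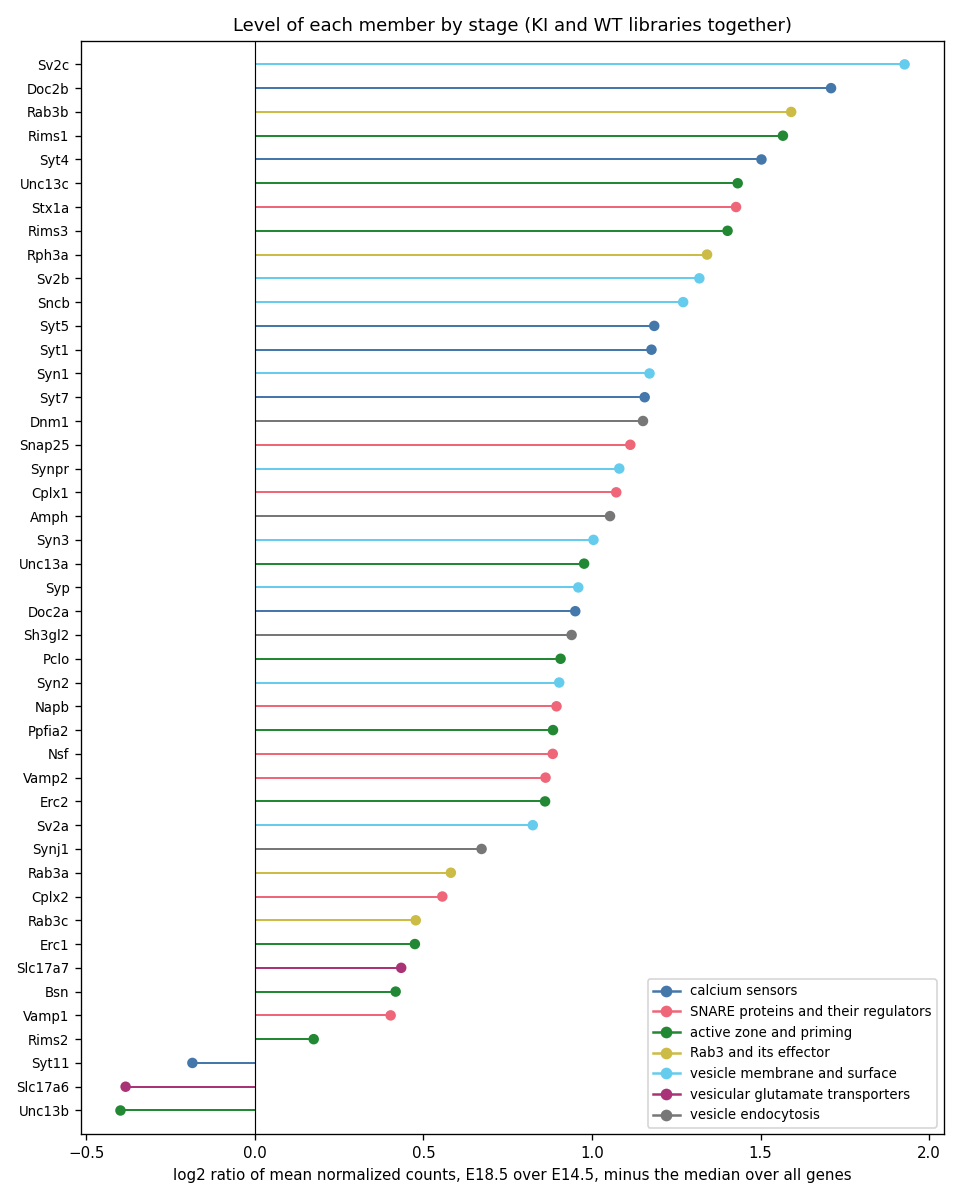
Log2 ratio of mean normalized counts, E18.5 over E14.5, minus the median ratio of all shared genes, for the 45 release genes coloured by role, with no error because the tables hold no library values. The points of 42 genes lie above 0, and Unc13b, Slc17a6 and Syt11 lie below it.

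No release gene passed the test in KI forebrain at E18.5. DESeq2, by the authors' deposited table, called 0 of 45 at an adjusted p under 0.05, where 0.0662% of the 13601 genes tested were called, and the lowest adjusted p among the 45 was 0.636, for Snap25. At an unadjusted p under 0.05, 2 release genes stood higher in KI, Snap25 and Syp, where 3.13% of all genes did, and 0 stood lower, where 2.82% of all genes did. The log2 fold changes lay between −0.12 for Doc2a and 0.13 for Vamp1. The point estimates were above 0 for 34 genes and below it for 11, with a median of 0.024, against −0.0018 over all genes tested, of which 48.8% were above 0. The 95% interval lay wholly within −0.2 and 0.2, a difference from −12.9% to 14.9%, for 37 of the 45, a bound chosen with these values known.

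At E14.5, Rims2 was the only release gene to pass the test in KI forebrain. Rims2, which encodes the RIM2 scaffold that ties vesicles to calcium channels at the active zone, rose, and it was 1 of 45 called at an adjusted p under 0.05, where 1.21% of the 13417 genes tested were called in either direction and 0.738% were called higher. No release gene was called lower. At an unadjusted p under 0.05, Rims2 stood higher, where 6.26% of all genes did. The 4 release genes that stood lower at this level were Doc2b, Rab3c, Cplx1 and Unc13c, where 5.28% of all genes did. The log2 fold changes at this stage lay between −0.31 for Unc13c and 0.23 for Rims2. Here 16 point estimates were above 0 and 29 below it, with a median of −0.030, against −0.00051 over all genes tested, of which 49.8% were above 0. The 95% interval lay within −0.2 and 0.2 for 30 of the 45.

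**Figure D2:**
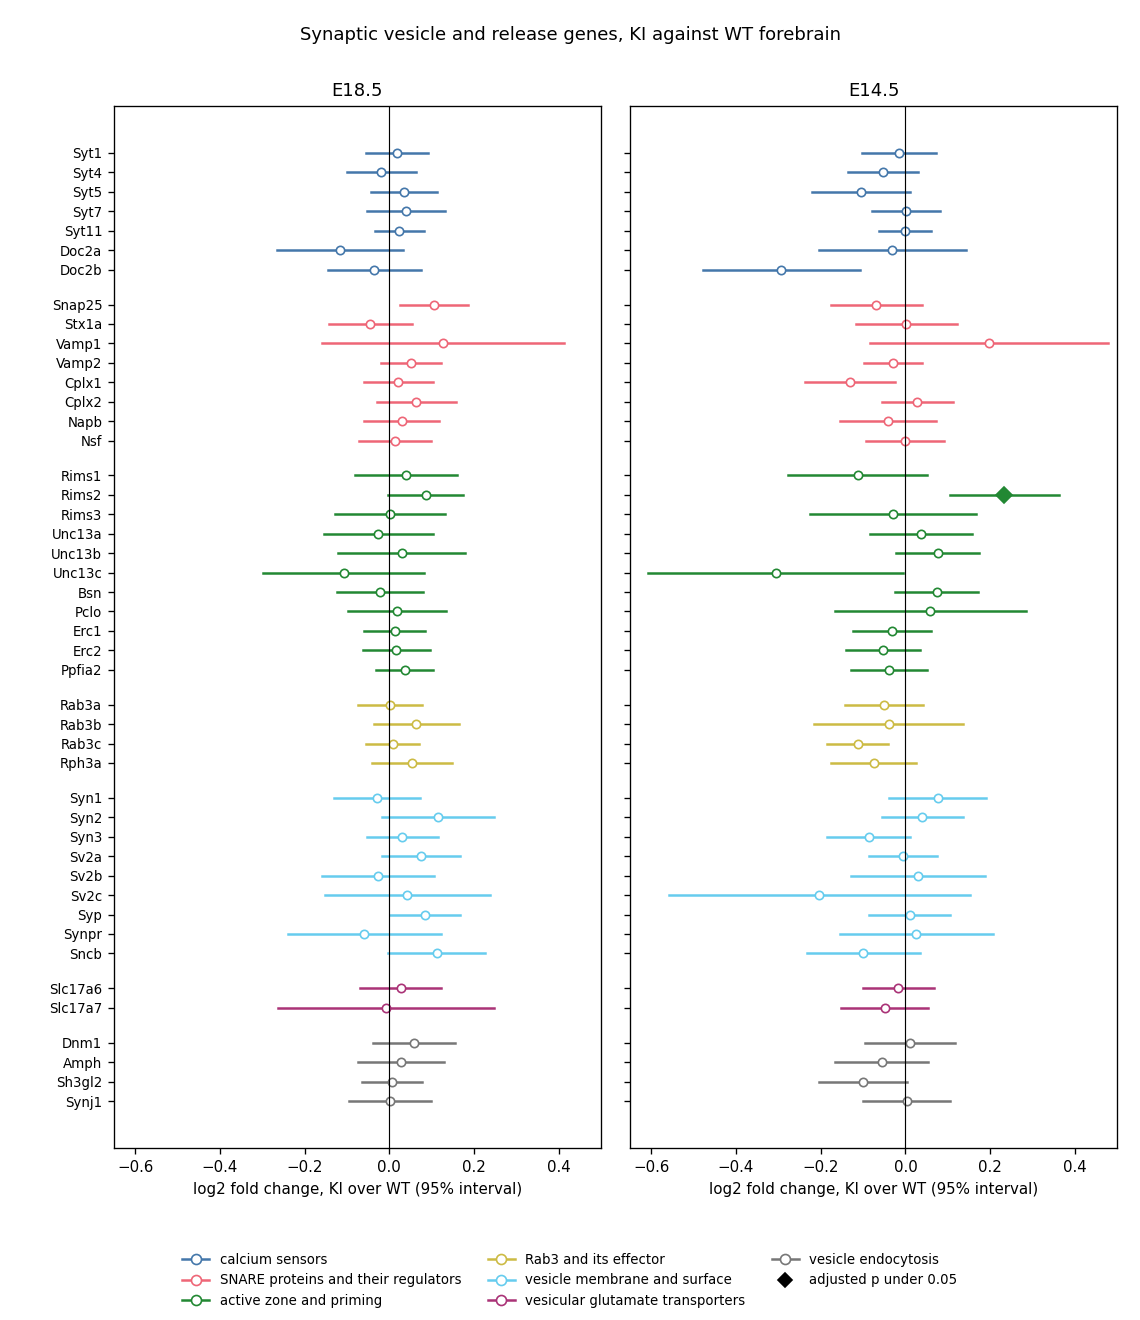
Log2 fold change of KI over WT for each of the 45 release genes, E18.5 in the left panel and E14.5 in the right, grouped by role, with bars for the 95% interval. The filled marker is Rims2 at E14.5, called at 0.23, and no gene was called at E18.5.

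**Figure D3:**
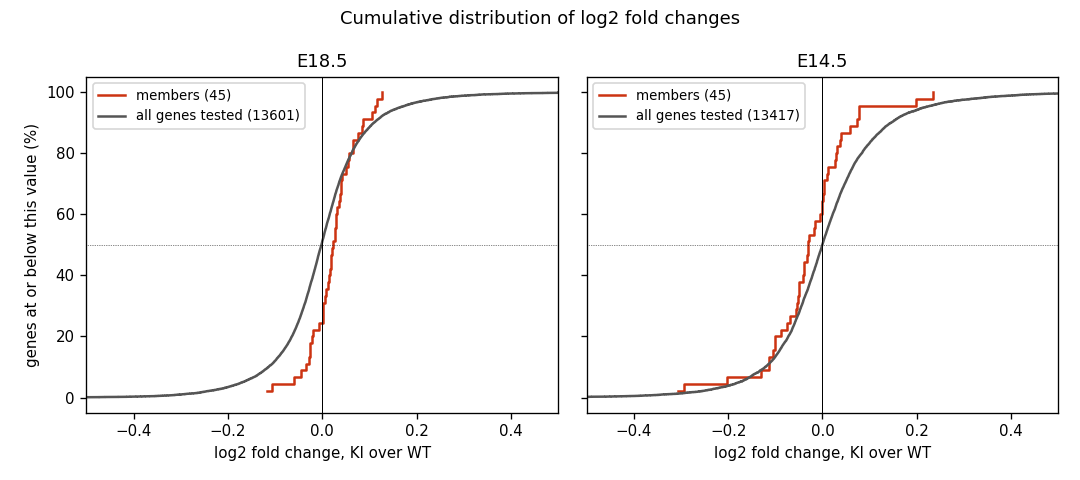
Cumulative share of genes by log2 fold change of KI over WT, for the 45 release genes and for all genes tested, with E18.5 in the left panel and E14.5 in the right. The median of the release genes lies at 0.024 at E18.5 and at −0.030 at E14.5, and that of all genes lies close to 0 at both.

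Among active zone and priming genes, the called gene Rims2 lies at chr15:39198286-39684372 (gene ID 116838, GRCm38.p6). At E14.5 its log2 fold change in the authors' deposited table was 0.23 (SE 0.066, 95% interval 0.10 to 0.36, adjusted p = 0.0383), which is 17.6% higher in KI, with an interval from 7.49% to 28.6%. For its mean normalized count of 1090, that ratio corresponds to group means of 1178 in KI and 1002 in WT. The SE was large for the count: 93.2% of the 1333 genes with a mean count within 1.2-fold of it had a smaller one, and their median SE was 0.0545. At E18.5 Rims2 had a log2 fold change of 0.09 (SE 0.0452, interval −0.00 to 0.17, adjusted p = 0.877), corresponding to 1400 in KI and 1319 in WT. The call at E14.5 was lost when p-values were adjusted over every gene that has one (adjusted p = 0.0512), by the Benjamini-Yekutieli method (0.386), or against a null width estimated from all genes (0.332).

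The other RIM genes passed no test. Rims1, which encodes the scaffold RIM1, stood by the authors' deposited table at 0.04 (SE 0.0619) at E18.5 and −0.11 (SE 0.0842) at E14.5. Rims3, which encodes a short RIM that lacks the Rab3-binding end, stood at 0.00 (SE 0.0664) at E18.5 and −0.03 (SE 0.1) at E14.5. A difference between Rims2 and its family was not tested. The Munc13 genes, whose proteins open syntaxin for priming, spread more widely. Unc13c, the form best known from the cerebellum, stood at −0.11 (SE 0.0971) at E18.5 and −0.31 (SE 0.154, adjusted p = 0.425) at E14.5, the lowest estimate of any release gene at that stage, at a mean normalized count of 99.4. For Unc13a, the main Munc13 gene of excitatory synapses, the values were −0.03 (SE 0.0658) at E18.5 and 0.04 (SE 0.061) at E14.5. Unc13b stood at 0.03 (SE 0.0767) at E18.5 and 0.08 (SE 0.05) at E14.5. The large scaffolds Bassoon and Piccolo are encoded by Bsn and Pclo. Bsn stood at −0.02 (SE 0.0521) at E18.5 and 0.07 (SE 0.0501) at E14.5, and Pclo at 0.02 (SE 0.0591) and 0.06 (SE 0.115). Erc1, Erc2 and Ppfia2, which encode the ELKS scaffolds and liprin-α2, lay between 0.01 and 0.04 at E18.5 and between −0.05 and −0.03 at E14.5. Of the 11 genes of this role, 8 stood above 0 at E18.5 and 5 at E14.5.

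The lowest p-value of a release gene at E18.5 was among the SNARE genes and their regulators. By the authors' deposited table, Snap25 had a log2 fold change of 0.11 (SE 0.0409, unadjusted p = 0.00931, adjusted p = 0.636) at E18.5 and −0.07 (SE 0.0548, adjusted p = 0.684) at E14.5. Vamp2, the vesicle SNARE gene of the forebrain, stood at 0.05 (SE 0.0363) at E18.5 and −0.03 (SE 0.0351) at E14.5. Its relative Vamp1, the form of brainstem and spinal cord, had the highest E18.5 estimate of all 45, 0.13, but with an SE of 0.145, and stood at 0.20 (SE 0.144) at E14.5. Vamp1 had 189 mean normalized counts at E18.5 and 129 at E14.5. Stx1a, which encodes the target-membrane SNARE syntaxin 1A, stood at −0.04 (SE 0.0497) at E18.5 and 0.00 (SE 0.0607) at E14.5. Cplx1, a complexin gene, stood at 0.02 (SE 0.0415) at E18.5 and −0.13 (SE 0.0543, unadjusted p = 0.016, adjusted p = 0.268) at E14.5, while Cplx2, the other complexin gene, stood at 0.06 (SE 0.0477) and 0.03 (SE 0.0423). Napb and Nsf, whose proteins pull spent SNARE complexes apart, stood at 0.03 and 0.01 at E18.5 and at −0.04 and −0.00 at E14.5. Of the 8 genes of this role, 7 stood above 0 at E18.5 and 3 at E14.5.

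No calcium sensor gene passed the test at either stage, and at an unadjusted p under 0.05 DESeq2 gave 0 at E18.5 and Doc2b at E14.5. Over all genes, 3.13% stood higher and 2.82% lower at that level at E18.5, and 6.26% and 5.28% at E14.5. Syt1, which encodes the sensor of fast release in the forebrain, stood by the authors' deposited table at 0.02 (SE 0.0372) at E18.5 and −0.02 (SE 0.0443) at E14.5. Syt7, whose product serves slow and asynchronous release, stood at 0.04 (SE 0.047) at E18.5 and 0.00 (SE 0.0409) at E14.5. Syt4 and Syt11, whose proteins bind calcium poorly or not at all, stood at −0.02 and 0.02 at E18.5 and at −0.05 and −0.00 at E14.5. Syt5 stood at 0.03 (SE 0.0398) at E18.5 and −0.11 (SE 0.0591) at E14.5. Doc2b lay at −0.03 (SE 0.0565) at E18.5 and −0.29 (SE 0.0947, adjusted p = 0.0878) at E14.5, the lowest p-value of a release gene below 0, which did not pass. Doc2a, the relative linked to spontaneous and asynchronous glutamate release, was the lowest of all 45 at E18.5, at −0.12 (SE 0.0762, adjusted p = 0.992), and stood at −0.03 (SE 0.089) at E14.5. Of these 7 genes, 4 stood above 0 at E18.5 and 1 at E14.5.

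Rab3 genes and their effector were on the same side of 0 within each stage. However, Rab3a and Rab3c at E18.5 and Rab3b at E14.5 lay well within their SE of 0. Rab3a, the main Rab3 gene of the brain, stood by the authors' deposited table at 0.00 (SE 0.0385) at E18.5 and −0.05 (SE 0.0471) at E14.5, and Rab3b at 0.06 (SE 0.0516) and −0.04 (SE 0.0895). Rab3c, a close relative of Rab3a, stood with a small SE at 0.01 (SE 0.032) at E18.5 and −0.11 (SE 0.0368, adjusted p = 0.0961) at E14.5. Rph3a, which encodes the Rab3 effector rabphilin, stood at 0.05 (SE 0.0481) at E18.5 and −0.08 (SE 0.0509) at E14.5. None of the 4 passed at either stage: DESeq2 gave an unadjusted p under 0.05 for 0 at E18.5 and for Rab3c at E14.5. At that level 3.13% of all genes stood higher and 2.82% lower at E18.5, and 6.26% and 5.28% at E14.5. Of 7 other genes of the Rab3 cycle, 3 stood above 0 at E18.5, with a median of −0.027, and 6 at E14.5, with 0.12. At an unadjusted p under 0.05 of DESeq2, 2 of those 7 stood higher at E14.5, against 6.26% of all genes.

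Genes of the vesicle membrane and surface showed no common direction. Syp, which encodes the membrane protein synaptophysin, stood by the authors' deposited table at 0.08 (SE 0.0426, unadjusted p = 0.0472, adjusted p = 0.827) at E18.5 and 0.01 (SE 0.0485) at E14.5. Its relative Synpr stood at −0.06 (SE 0.0921) at E18.5 and 0.03 (SE 0.0921) at E14.5. Among the synapsin genes, Syn2 stood at 0.12 (SE 0.0677) at E18.5 and 0.04 (SE 0.0487) at E14.5. For Syn1, whose promoter is shown above, the values were −0.03 (SE 0.0516) at E18.5 and 0.08 (SE 0.0586) at E14.5, and for Syn3 0.03 (SE 0.0428) and −0.09 (SE 0.0499). Sncb, which encodes β-synuclein, a presynaptic vesicle-binding protein, stood at 0.11 (SE 0.0586) at E18.5 and −0.10 (SE 0.0679) at E14.5. The SV2 genes encode glycoproteins of unsettled transport function. Sv2a, the broadly expressed form, stood at 0.08 (SE 0.0473) at E18.5 and −0.01 (SE 0.0407) at E14.5, and Sv2b at −0.03 (SE 0.067) and 0.03 (SE 0.0805). Sv2c stood at 0.04 (SE 0.099) at E18.5 and −0.20 (SE 0.182, adjusted p = 0.734) at E14.5, with the lowest mean count of the 45 at E14.5. Of the 9 genes, 6 stood above 0 at E18.5 and 5 at E14.5.

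Neither vesicular glutamate transporter gene passed the test at either stage. Slc17a7 encodes VGLUT1 of cortical projection neurons and stood by the authors' deposited table at −0.01 (SE 0.13) at E18.5 and −0.05 (SE 0.0525) at E14.5. Its E18.5 interval, −0.26 to 0.25, is wide: 98.6% of genes with a like mean count had a smaller SE. Slc17a6, which encodes VGLUT2 of thalamus and brainstem and of many young neurons, stood at 0.03 (SE 0.0488) at E18.5 and −0.02 (SE 0.0426) at E14.5. No endocytosis gene passed, and DESeq2 gave an unadjusted p under 0.05 for 0 of the 4 at either stage. At that level 3.13% of all genes stood higher and 2.82% lower at E18.5, and 6.26% and 5.28% at E14.5. Dnm1, the dynamin gene of neurons, stood at 0.06 (SE 0.0493) at E18.5 and 0.01 (SE 0.0541) at E14.5. Amph, which encodes the dynamin partner amphiphysin, stood at 0.03 (SE 0.0517) at E18.5 and −0.06 (SE 0.0562) at E14.5. Sh3gl2, the second gene with a printed promoter, stood at 0.01 (SE 0.0364) at E18.5 and −0.10 (SE 0.0525, adjusted p = 0.452) at E14.5. Synj1, whose lipid phosphatase sheds the coat after uptake, stood at 0.00 at both stages, with an SE of 0.0496 at E18.5 and 0.0528 at E14.5.

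The KI effect on release genes was not shown to differ between the stages. The difference of the log2 fold changes, E18.5 minus E14.5, was tested with the summed variances for 13106 genes, and 0 of 45 release genes passed an adjusted p under 0.05, where 0% of all genes did; the lowest adjusted p of a release gene was 0.999. At an unadjusted p under 0.05 of this z test, 6 release genes had a higher effect at E18.5, where 2.33% of all genes did, and 0 had a lower one, where 2.2% of all genes did. The 6 were Snap25, with a difference of 0.17 (SE 0.0683), Rab3c with 0.12 (SE 0.0488), Sncb with 0.21 (SE 0.0897), Doc2b with 0.26 (SE 0.11), Cplx1 and Syt5. For Rims2 the difference was −0.15 (SE 0.080, interval −0.30 to 0.01). Differences of point estimates were above 0 for 33 release genes and below it for 12, with a median of 0.047. Over all genes, 49.6% were above 0. The difference was also above 0 for 11 of 15 pan-neuronal genes, with a median of 0.073. For excitatory cortical neuron genes it was above 0 in 10 of 12, with a median of 0.091. Of 92 other release genes with a difference, 58 were above 0, with a median of 0.026. By contrast, 1 of 11 radial glia genes and 2 of 11 cell division genes were above 0. An estimate above 0 at E18.5 and below 0 at E14.5 was found for 24 release genes (53.3%), against 20.7% of all genes, and the opposite pattern for 6 (13.3%), against 21.5%. These are counts of estimates, most of them within their error, and the libraries of a stage are shared by all 45.

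**Figure D4:**
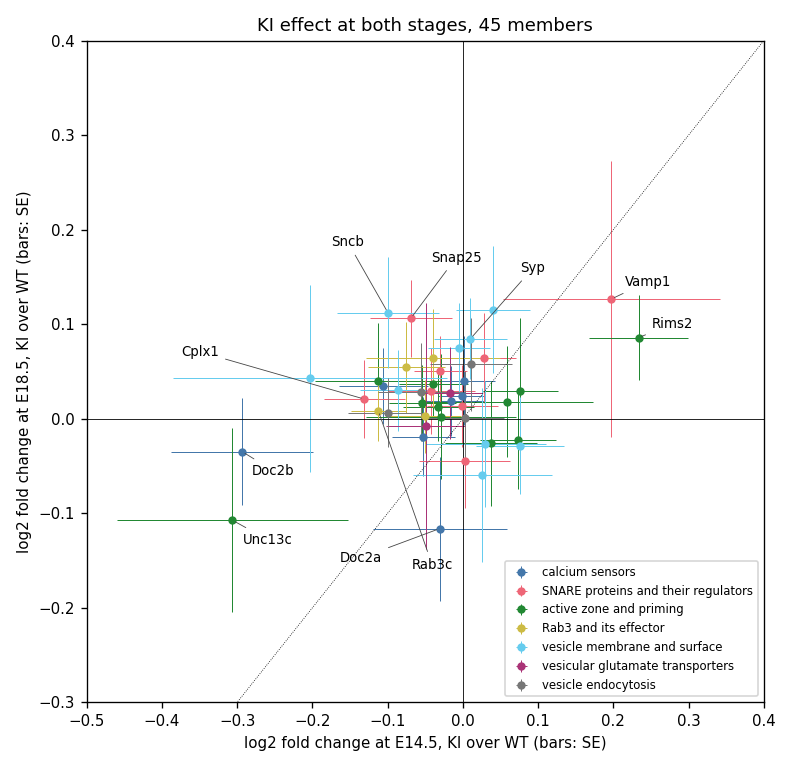
Log2 fold change of KI over WT at E18.5 (vertical axis) against that at E14.5 (horizontal axis) for the 45 release genes, coloured by role, with bars for the SE and a dotted line where both are equal. Rims2 and Vamp1 lie at the upper right, and 24 genes lie in the upper left field, above 0 at E18.5 and below 0 at E14.5.

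Other genes of the release machinery, 102 listed by role, gave no further call. DESeq2 called 0 of the 96 tested at E18.5, with 9 higher (9.38%, against 3.13% of all genes) and 2 lower (2.08%, against 2.82%) at an unadjusted p under 0.05. At E14.5 it called 0 of the 92 tested, with 3 higher (3.26%, against 6.26% of all genes) and 10 lower (10.9%, against 5.28%) at that level. Point estimates were above 0 for 58 at E18.5 and for 43 at E14.5, with medians of 0.020 and −0.013. By the authors' deposited table Slc32a1, which encodes the vesicular GABA transporter, had the lowest adjusted p at E18.5, 0.352, with a log2 fold change of 0.16 (SE 0.0509). The further genes named here had a mean normalized count of at least 50 at the stage given. Synj2, a relative of Synj1, stood at 0.25 (SE 0.144) and Syt13 at 0.15 (SE 0.0741) at this stage. Below 0 at E18.5 were Snapin, whose protein binds SNAP25 (−0.17, SE 0.064, adjusted p = 0.628), the syntaxin gene Stx2 (−0.15, SE 0.0695) and the liprin gene Ppfia1 (−0.09, SE 0.0578). At E14.5 the synaptotagmin genes Syt3 (−0.28, SE 0.0872, adjusted p = 0.081) and Syt6 (−0.20, SE 0.0738) were the lowest above that mean count. The highest above it at E14.5 were Tspoap1, which encodes a RIM-binding protein (0.18, SE 0.117), Atp6v1g2, a proton pump subunit gene (0.16, SE 0.0853), and Slc18a2, the vesicular monoamine transporter gene (0.16, SE 0.0878).

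Markers of neurons and of other cells in the tissue are given beside these values. Over all genes tested at E18.5, 3.13% stood higher and 2.82% lower at an unadjusted p under 0.05 by DESeq2, and 0.0662% were called. At E14.5 these shares were 6.26%, 5.28% and 1.21%. Of 15 pan-neuronal genes, 14 stood above 0 at E18.5 and 5 at E14.5, with medians of 0.041 and −0.029, and DESeq2 in the authors' deposited tables called 0 at either stage, with 2 at E18.5 and 1 at E14.5 higher at an unadjusted p under 0.05. Of 12 genes of excitatory cortical neurons, Slc17a7 among them, 3 stood above 0 at E18.5 and 1 at E14.5, with medians of −0.015 and −0.11. At an unadjusted p under 0.05, DESeq2 gave 0 of these 12 lower at E18.5 and 6 lower at E14.5. Neurod6, a transcription factor gene of these neurons, fell at E14.5, with a log2 fold change of −0.20 (SE 0.0456, adjusted p = 0.00438). Of 12 genes of GABAergic neurons, Slc32a1 among them, 10 stood above 0 at E18.5 and 9 at E14.5, with medians of 0.12 and 0.079, and Dlx1 rose at E14.5, at 0.17 (SE 0.0466, adjusted p = 0.0369). At an unadjusted p under 0.05, 5 of the 12 stood higher at E18.5, while at E14.5 4 stood higher and 2 lower. All 11 cell division genes stood below 0 at E18.5, with a median of −0.098 and 2 of them at an unadjusted p under 0.05, and 8 stood above 0 at E14.5, with a median of 0.033. All 7 oligodendrocyte lineage genes stood below 0 at E18.5, with a median of −0.19 and 3 at an unadjusted p under 0.05, and 5 of 7 did at E14.5, with a median of −0.046. Of 11 radial glia genes, 2 stood above 0 at E18.5 and 5 at E14.5, and Ttyh1 rose at E14.5, at 0.13 (SE 0.0372, adjusted p = 0.0491). Of the 3 erythroid genes tested at E14.5, the embryonic globin genes Hbb-y (0.50, SE 0.0683, adjusted p = 1.64e-09) and Hba-x (0.59, SE 0.149, adjusted p = 0.0118) rose. Of 9 striatal neuron genes, 7 stood above 0 at E18.5 and 2 at E14.5, with medians of 0.055 and −0.048. All 6 diencephalon and midbrain genes tested at E18.5, Slc17a6 among them, stood above 0, with a median of 0.14. At E14.5, 5 of 8 did, with a median of 0.035. All 6 microglia genes tested stood above 0 at E18.5, with a median of 0.15, and 4 of 6 at E14.5, with 0.021. Their median SE was 0.19 at E18.5 and 0.16 at E14.5. DESeq2 gave 0 of them an unadjusted p under 0.05 at either stage. Of 4 meninges and fibroblast genes tested at E14.5, 3 stood above 0, with a median of 0.34 and a median SE of 0.18. By DESeq2, 1 of them stood higher at an unadjusted p under 0.05. No marker that was listed had a mean of 0, which does not show that every marker was detected. At E18.5 only 1 of 7 erythroid, 1 of 6 choroid plexus and 1 of 6 meninges and fibroblast genes had an adjusted p. The part of cell number or type in the release gene values was not tested.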

How the data were processed

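DESeq2 1.26.0 and the mm10 build are credited to the submitters' processing notes, which also list featureCounts 2.0.0, HISAT2 2.1.0 and Trimmomatic 0.39. Whether counting used strand is not given in the sources used here. Per the file headers, the authors deposited 1 DESeq2 table per stage with the mean normalized count of each gene (a signal averaged over the libraries), the log2 fold change and its SE on the log2 scale, the Wald statistic (a score), and the p-value and adjusted p-value. No column of per-sample values was left unused (0). Gene IDs were paired with symbols through RefSeq GRCm38.p6, which matched 97.5% at E18.5 and 95.8% at E14.5. The authors' fit across all genes was the test, with calls at an adjusted p under 0.05. The 45 genes, the other release genes and the marker lists were chosen with earlier results of these data known. Computed here were 95% intervals, group means implied by a fold change, stage differences (z test, Benjamini-Hochberg over 13106 genes) and promoter matches. Python 3.11.15, pandas 2.3.3 and scipy 1.17.1 were used. The stage test was tested on simulated data, with differences larger than any among the release genes. Its power for differences as small as theirs was not examined. Every release gene is given; of the other release genes, those named have the 3 highest and 3 lowest fold changes per stage at a mean count of at least 50, of which 1 is not reported here. Symbols not matched or listed were Stn2, Vamp7, Cplx3 and Cplx4. ChIP-seq and ATAC-seq were not analysed here, and the depth per library is unknown.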

Additional observations from a re-analysis of the deposited data

How the results depend on the processing

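The single call among release genes at E14.5 depended on the adjustment: 1 of 45 in the deposited table became 0 when p-values were adjusted over every gene with a p-value, 0 under Benjamini-Yekutieli and 0 against a null width estimated from all genes, and stayed at 1 with genes of a mean count of at least 100. At an adjusted p under 0.1 it was 3, Rims2, Doc2b and Rab3c, and among the other release genes it was 2 in place of 0, Syt3 and Snap91. At E18.5, and for the stage difference, 0 release genes were called under every alternative run. The medians moved little, 0.0237 to 0.0255 at E18.5 and −0.0300 to −0.0289 at E14.5. Means weighted by 1 over the squared SE were 0.0261 at E18.5 and −0.0236 at E14.5. No paired analysis was possible because the tables hold no values per library, and for the same reason no replicate could be left out and no count model refitted. Precision rests on 5 libraries a group and on spread that the SEs summarise.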

Other observations

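Each of the 3 synapsin genes holds a TIMP gene, which encodes a secreted inhibitor of matrix metalloproteinases, within its annotated span, and the strand used in counting is not given in the sources used here. Timp1, inside Syn1, stood by the authors' deposited tables at −0.40 (SE 0.448) at E18.5 and −0.59 (SE 0.352) at E14.5, with mean normalized counts of 15.3 and 15.6 and no adjusted p. Timp4, inside Syn2, stood at 0.12 (SE 0.158) at E18.5 and 0.12 (SE 0.303) at E14.5. Its mean counts were 92.1 at E18.5 and 22.8 at E14.5, where it had no adjusted p. Timp3, inside Syn3, stood at −0.06 (SE 0.177) at E18.5 and 0.03 (SE 0.074) at E14.5. Other release genes with an annotated overlap with a listed protein-coding gene were Doc2a with Ino80e, Unc13a with Colgalt1 and Unc13b with Fam214b, while Syn1 also overlaps Araf and Syn3 overlaps Fbxo7.

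Some release genes had larger SEs in the authors' deposited tables than genes of a like mean count, and others had smaller ones. The genes named here were picked for a high or a low SE. Slc17a6 at E14.5 had a larger SE than only 3.13% of such genes. For Syt11 this share was 3.72% at E18.5 and 5.08% at E14.5. For Pclo at E14.5 the SE was 0.115, larger than that of 99.1% of such genes, whose median SE was 0.0447. For Slc17a7 at E18.5 it was 0.13, against a median of 0.0509, while at E14.5 it was larger than that of 34.1%. Unc13a had a larger SE than 94.9% of genes of like count at E18.5 and 96.6% at E14.5. Which libraries carry the spread behind the larger SEs cannot be seen in the tables, and its source was not tested.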
